A study of Mus musculus with 11 samples.

Results

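Transcripts of 10 genes of the BCL2 family, which sets whether a cell survives or dies through its mitochondria, were followed in clonal mouse progenitor lines with and without tafazzin. The genes were taken by name from the Ensembl gene IDs of the count tables, and all 10 were found among 37583 gene IDs and had enough counts to be tested. They comprise 3 anti-apoptotic genes (Bcl2, Bcl2l1 and Mcl1), 2 pore-forming genes (Bax and Bak1) and 5 BH3-only genes (Bid, Bad, Bcl2l11, Bbc3 and Pmaip1). The tables hold 5 knockout (KO) clones lacking tafazzin (3H, 3I, 4J, 4K, 4L) and 6 wild-type (WT) clones (1A, 1B, 1C, 2D, 2E, 2F), and where every value of a genotype is given the clones run in that order. All 11 were C57BL/6 fetal liver progenitors of embryonic day 15.5, labelled as granulocyte-monocyte progenitors (GMPs), each expanded from a single cell. All carried retroviral ER-Hoxb8, a Hoxb8 transcription factor that is active while estradiol is present (0.5 uM) and holds the cells immature. All were kept in medium conditioned to about 50 ng/ml of stem cell factor (SCF), on which they depend, and total RNA came from 5 M cells each. The labels do not say what the number in each clone's name means, nor whether clones with the same number descend from 1 culture, so the p-values describe only the spread from clone to clone.

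BCL2 family proteins meet at the mitochondrial outer membrane. BAX and BAK can open that membrane and release cytochrome c, BCL2, BCL-xL (the main product of Bcl2l1) and MCL1 hold them back, and BH3-only proteins tip the balance by binding the anti-apoptotic proteins or by activating BAX and BAK. In the neutrophil lineage MCL1 is known as a short-lived protein on which survival depends. Tafazzin, encoded by Taz, remodels cardiolipin, a phospholipid of the inner mitochondrial membrane to which truncated BID is known to bind. Much of the family's control lies in protein stability, phosphorylation and cleavage, which mRNA counts do not measure.

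Gene counts totalled 21.6 ± 1.90 M per KO clone (SD, n = 5) and 24.97 ± 2.15 M per WT clone (SD, n = 6), and levels are given as CPM, counts per 1 M gene counts after scaling. Taz checked the labels, at 3.23 ± 0.68 CPM in KO clones and 39.1 ± 2.54 CPM in WT clones, with a log2 fold change of -3.60 ± 0.14 (SE, edgeR quasi-likelihood adjusted p = 4.08e-07). The GMP genes Mpo and Kit were high in every clone, with Mpo between 5347 and 12057 CPM in KO clones and between 5847 and 13248 CPM in WT clones. Not all of the 10 listed GMP and primary granule genes were so even. Elane lay between 2.26 and 147 CPM in KO clones and between 23.3 and 825 CPM in WT clones (edgeR quasi-likelihood adjusted p = 0.371). The B cell genes Pax5 and Ms4a1 and the T cell genes Cd3e and Cd8a were at 0 in every library, but other genes of these lists were detected. Cd79b, a B cell gene, averaged 0.61 CPM in KO clones and 8.55 CPM in WT clones (edgeR quasi-likelihood adjusted p = 0.0170). The 6 T cell genes summed to between 1.08 and 6.84 CPM in KO clones and between 1.20 and 4.88 CPM in WT clones. The 6 B cell genes summed to between 4.52 and 27.4 CPM in KO clones and between 30.4 and 50.1 CPM in WT clones, and their part in the results below was not tested. The 11 late neutrophil genes summed to between 15.95 and 145 CPM in KO clones and between 22.0 and 1534 CPM in WT clones, and the highest was WT 2D. Bulk RNA cannot tell fewer cells of a type apart from less RNA per cell.

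The 250 bases before a RefSeq transcription start of Bbc3, Bid and Bax are shown because Bbc3 and Bid are the members that passed the test and Bax has the only p53 half-site in the family's windows. They are RefSeq sequences of build GRCm38.p6, 5′ to 3′ on the gene's strand. Capitals mark the GC box GGGCGG on either strand in Bbc3 and Bid and the p53 half-site in Bax, whose GC boxes are left in lower case.
Bbc3, chr7:16309333-16309582, plus strand: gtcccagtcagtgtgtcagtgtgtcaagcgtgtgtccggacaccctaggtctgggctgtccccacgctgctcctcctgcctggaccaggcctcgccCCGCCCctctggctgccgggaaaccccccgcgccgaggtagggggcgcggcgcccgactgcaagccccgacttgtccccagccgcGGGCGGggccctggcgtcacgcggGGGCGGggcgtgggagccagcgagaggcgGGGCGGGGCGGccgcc
Bid, chr6:120916825-120917074, minus strand: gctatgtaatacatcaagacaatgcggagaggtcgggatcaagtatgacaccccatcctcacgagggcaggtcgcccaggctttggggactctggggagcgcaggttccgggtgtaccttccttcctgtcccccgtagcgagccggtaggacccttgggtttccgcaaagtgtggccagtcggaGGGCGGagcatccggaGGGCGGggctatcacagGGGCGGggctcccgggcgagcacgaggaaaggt
Bax, chr7:45466899-45467148, minus strand: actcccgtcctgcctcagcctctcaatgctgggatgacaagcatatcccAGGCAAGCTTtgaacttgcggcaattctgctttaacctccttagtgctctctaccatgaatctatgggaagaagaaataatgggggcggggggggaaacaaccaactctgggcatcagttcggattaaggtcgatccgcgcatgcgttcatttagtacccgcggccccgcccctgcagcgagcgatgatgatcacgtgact
The Bbc3 window lies in the first intron of the longest annotated Bbc3 span and before the first exon of another transcript, the Bid window ends inside the first exon of a longer Bid transcript, and the Bax window lies wholly before the gene. The capitals show 5 GC boxes in Bbc3, of which the last pair overlaps, 3 in Bid within the bases nearest the start, and 1 half-site in Bax. RefSeq listed 15 such windows, some of them overlapping, for 9 of the members. Pmaip1 had no window, so no motif was sought there. Bbc3 had further windows, and the one of lowest coordinate is printed. Of the 15, 10 held a GC box, against 32.742% of 32851 windows of all genes. The members' windows ranged in GC content from 47.6% to 81.6%, beside a median of 52.4% over all windows. A p53 half-site was in 1 of the 15 and in 7.126% of all windows, and the FOXO core TGTTTAC was in 2 of the 15 (Bbc3 and Bcl2l11) and in 3.166% of all. The core TGCAAT was sought as the site of the stress factor CHOP with its C/EBP partner. TGCAAT and the amino acid response core TGATGNAA were in none of these 15 windows, and in 7.324% and 3.452% of all windows. That speaks only of these letters in these bases.

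Of the 10 members, Bbc3 and Bid rose in KO clones and none fell, at an adjusted p under 0.05 in edgeR's quasi-likelihood test. Among all 11900 tested genes, 5.05% were called, 2.76% higher and 2.29% lower in KO clones. The same members, Bbc3 and Bid, were those in which no KO clone overlapped a WT clone, as did 5.99% of all tested genes. Log2 fold changes were above 0 for 7 of the 10 members (median 0.20), beside 48.4% of all tested genes (median -0.0059). At an unadjusted p under 0.05 there were 5 members, Bcl2, Bax, Bid, Bcl2l11 and Bbc3, and all 5 had positive fold changes, beside 20.3% of all tested genes at that unadjusted p. Anti-apoptotic and pro-apoptotic genes both stood among those 5. Bid lost its call without any single clone other than WT 1A, and the count of called members was then 1, or 2 where Bax (without WT 2D or KO 4K) or Bcl2 (without WT 2E) came in.

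**Figure D1:**
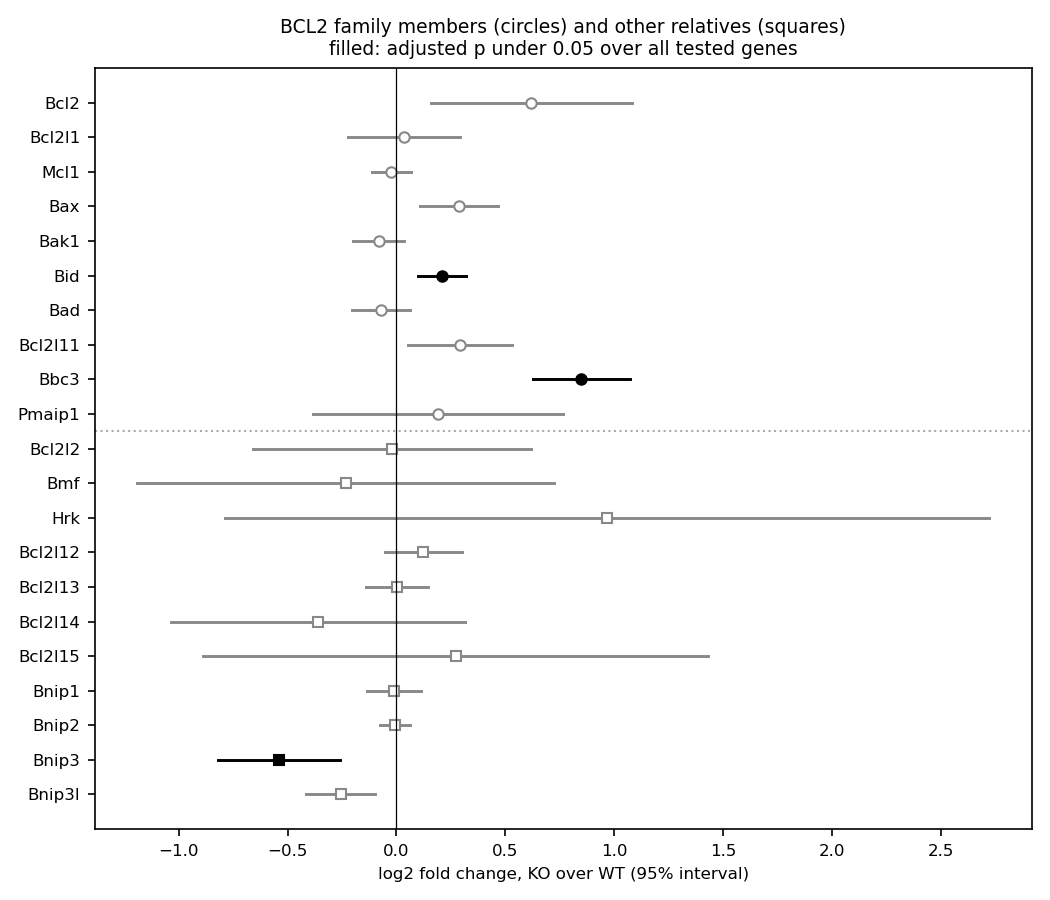
Log2 fold change, KO over WT, of the 10 members (circles) and of 11 further tested relatives (squares), with 95% intervals; filled symbols have an adjusted p under 0.05. Bbc3 at 0.85 and Bid at 0.21 are the filled members, and Bnip3 at -0.54 is the filled relative.

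Levels were compared between genes as CPM per kb of exon, since longer transcripts collect more reads. Bak1 was the most abundant member, at 80.5 ± 2.86 CPM per kb in KO clones and 85.1 ± 6.48 CPM per kb in WT clones. Mcl1 followed, at 65.4 ± 3.15 CPM per kb in KO clones and 66.4 ± 2.76 CPM per kb in WT clones. Below them came Bax, Pmaip1 and Bid in both genotypes, and neighbours in that run of 3 overlapped between clones. The remaining 5 members lay much lower, with no KO clone above 14.9 CPM per kb and no WT clone above 11.6 CPM per kb. Bcl2l11 was the lowest, at 5.65 ± 0.53 CPM per kb in KO clones and 4.62 ± 0.72 CPM per kb in WT clones. Bbc3 held the sixth place in KO clones, at 12.6 ± 1.56 CPM per kb, and the ninth in WT clones, at 6.996 ± 0.845 CPM per kb. Its clones overlapped those of Bcl2, its neighbour in that order, in both genotypes. These places depend on the length used. With the length of the longest transcript in place of all exons, Bbc3 was the eighth in KO clones, at 14.8 CPM per kb, and the ninth in WT clones, at 8.19 CPM per kb, and Bax stood above Mcl1 in KO clones (73.6 against 65.4 CPM per kb) and below it in WT clones (60.3 against 66.4 CPM per kb).

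**Figure D2:**
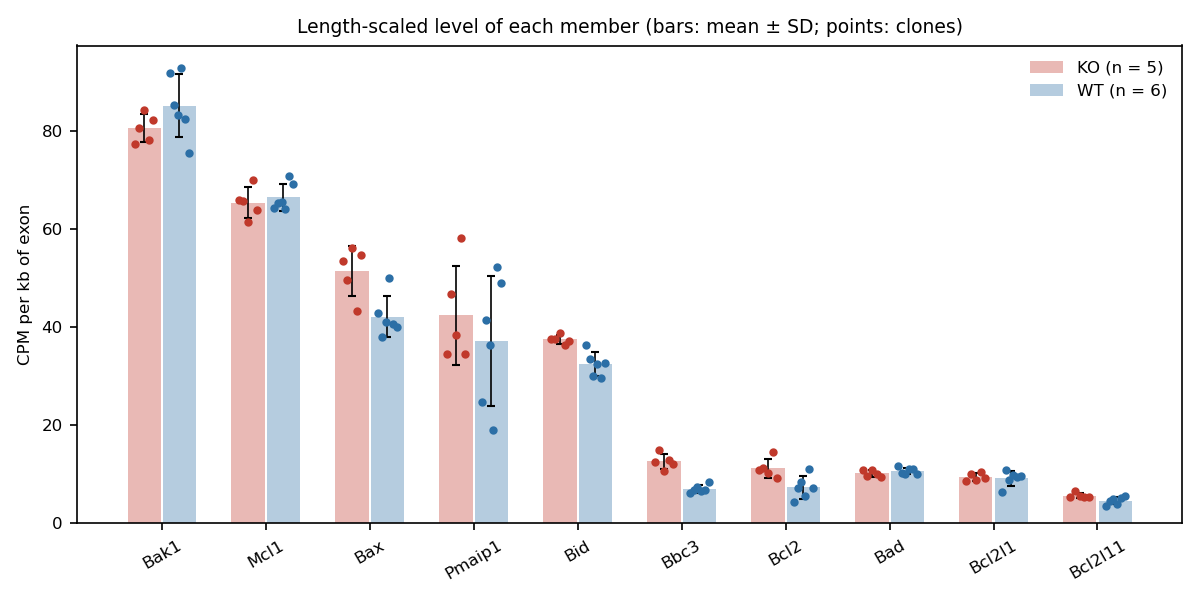
CPM per kb of exon for each member, with bars for the mean, whiskers for the SD and points for clones (KO left of WT). Bak1 and Mcl1 lead in both genotypes, and Bbc3, Bcl2, Bad, Bcl2l1 and Bcl2l11 lie lowest.

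Among the anti-apoptotic genes, none passed the test. Bcl2, which encodes the founding survival protein of the family, stood at 99.8, 103, 94.7, 133 and 85.1 CPM in KO clones, and at 40.4, 65.7, 76.3, 51.7, 102 and 65.9 CPM in WT clones. WT 2E lay among the KO clones and the other WT clones below them all, so the genotypes overlapped through 1 clone. The log2 fold change was 0.62 ± 0.21 (SE), with a 95% interval from 0.16 to 1.08 and an adjusted p of 0.121. It passed the threshold without WT 2E (adjusted p = 0.0389) and with DESeq2 (adjusted p = 0.0375), within a range of 0.0143 to 0.489 over 27 alternatives. The lowest came from the fit with the clone-name number as a random block, a less strict test whose limit is given in the closing section.

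Mcl1 was the steadiest of the 3 anti-apoptotic genes, with SDs under 5% of the mean in each genotype. It had 225, 224, 209.9, 239 and 219 CPM in KO clones, against a lowest value of 219, a median of 223 and a highest of 242 CPM in WT clones. The ranges overlapped, with KO 4J and KO 4L just below the lowest WT clone. Mcl1 had a log2 fold change of -0.023 ± 0.040 (SE), and its 95% interval, -0.11 to 0.066, was the narrowest of the 10 (adjusted p = 0.797).

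Bcl2l1, whose BCL-xL product also protects red cell precursors and platelets, had between 39.3 and 47.8 CPM in KO clones and between 29.5 and 50.0 CPM in WT clones. WT 1A was the lowest clone and WT 1B the highest, so the KO clones lay inside the WT range. Its log2 fold change of 0.034 ± 0.12 (SE) had a 95% interval from -0.22 to 0.29 (adjusted p = 0.906), which leaves room for changes in either direction.

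Neither pore-forming gene passed the test. Bax, whose protein moves from the cytosol to mitochondria when activated, had 84.1, 78.1, 88.5, 68.3 and 86.0 CPM in KO clones. The WT clones had 67.5, 59.8, 64.7, 78.9, 64.1 and 63.2 CPM. KO 4K and WT 2D were the clones that crossed: WT 2D lay above KO 3I and KO 4K, and KO 4K lay just above the other WT clones. Bax had a log2 fold change of 0.29 ± 0.08 (SE), with a 95% interval from 0.11 to 0.47 and an adjusted p of 0.0710. Without WT 2D the adjusted p was 0.0184 and without KO 4K it was 0.0368, and over 27 alternatives it ranged from 0.00985 to 0.393. The lowest again came from the less strict fit with the clone-name number as a random block. Bax counts can include reads of a same-strand neighbour, Gm45808, which shares 192 exon bases with it.

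Bak1, whose protein sits in the outer membrane at rest, had between 186 and 203 CPM in KO clones and between 181 and 223 CPM in WT clones. The KO clones lay within the WT range, and the log2 fold change was -0.081 ± 0.053 (SE), with a 95% interval from -0.20 to 0.036 (adjusted p = 0.430). A p that misses the threshold does not show that the genotypes were alike. Bak1 shares 437 exon bases with Ggnbp1 on the opposite strand, and Ggnbp1 itself had 330 counts over all clones.

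The BH3-only genes held both calls. Bbc3 (ENSMUSG00000002083, at chr7:16308393-16318205 on the plus strand of GRCm38) encodes PUMA, a p53 target that binds all the main anti-apoptotic proteins. It had 26.6, 31.6, 22.4, 27.4 and 25.8 CPM in KO clones, against 12.9, 14.6, 15.6, 13.8, 14.2 and 18.04 CPM in WT clones. Every KO clone lay above every WT clone, and the lowest KO clone, 4J, was above the highest WT clone, 2F. Means were 26.8 ± 3.31 CPM in KO clones (SD, n = 5) and 14.9 ± 1.80 CPM in WT clones (SD, n = 6), a ratio of 1.80. Bbc3 had a log2 fold change of 0.85 ± 0.10 (SE), with a 95% interval from 0.63 to 1.07 and an adjusted p of 0.00183. It passed the threshold in each of the 11 fits that left out 1 clone, with log2 fold changes from 0.78 to 0.91, and fell short without the 3 WT clones of number 1 (log2 fold change 0.80, adjusted p = 0.0636), within a range of 1.44e-11 to 0.0636 over 27 alternatives. Bbc3 counts lay between 319 and 745 per library, and those of Bad, the member with the next lowest count, between 476 and 773.

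Bid (ENSMUSG00000004446, at chr6:120891930-120916853 on the minus strand of GRCm38) encodes the protein that caspase-8 cuts to link death receptors to mitochondria. Its 5 KO clones were close together, at 133, 133, 138, 129 and 132 CPM. The WT clones had 129, 119, 107, 115, 105 and 116 CPM. The groups did not overlap, but KO 4K at 129.1 CPM and WT 1A at 128.6 CPM nearly met. Means were 133 ± 3.07 CPM in KO clones (SD, n = 5) and 115 ± 8.60 CPM in WT clones (SD, n = 6), a ratio of 1.16. Bid had a log2 fold change of 0.21 ± 0.05 (SE), with a 95% interval from 0.098 to 0.32 and an adjusted p of 0.0394. That call was lost on leaving out any single clone other than WT 1A (adjusted p up to 0.0919) and held without WT 1A (adjusted p = 0.0165), within a range of 0.00226 to 0.333 over 27 alternatives. Bid shares 628 exon bases with Bcl2l13 on the opposite strand, and strand was ignored in counting; Bcl2l13 itself had a log2 fold change of 0.0020 ± 0.064 (SE) and an adjusted p of 0.991.

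Bcl2l11 encodes BIM, the BH3-only protein that accumulates when blood cells lose their growth factor. It had 43.8, 52.7, 45.2, 43.01 and 42.3 CPM in KO clones, against 28.8, 36.6, 39.5, 32.4, 40.9 and 44.5 CPM in WT clones. KO 3I stood apart at the top, and WT 2F was the one WT clone within the KO range. Bcl2l11 had a log2 fold change of 0.29 ± 0.11 (SE), with a 95% interval from 0.053 to 0.53 and an adjusted p of 0.156.

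Bad, whose protein is held in the cytosol by 14-3-3 proteins when growth factor signalling phosphorylates it, had between 23.9 and 27.7 CPM in KO clones and between 25.5 and 29.7 CPM in WT clones. The ranges overlapped, and the log2 fold change was -0.071 ± 0.060 (SE), with a 95% interval from -0.20 to 0.061 (adjusted p = 0.552). Bad shares 524 exon bases with Gpr137 on the opposite strand. Pmaip1, which encodes the MCL1 partner NOXA, was the most variable member, at 94.2, 127, 105, 159 and 94.3 CPM in KO clones. The WT clones had 67.3, 113, 99.2, 51.8, 143 and 134 CPM. Its SD was 23.8% of the mean in KO clones and 35.7% in WT clones, and the genotypes overlapped over most of their range. Pmaip1 had a log2 fold change of 0.19 ± 0.26 (SE), and its 95% interval from -0.38 to 0.77 was the widest of the 10 (adjusted p = 0.736).

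**Figure D3:**
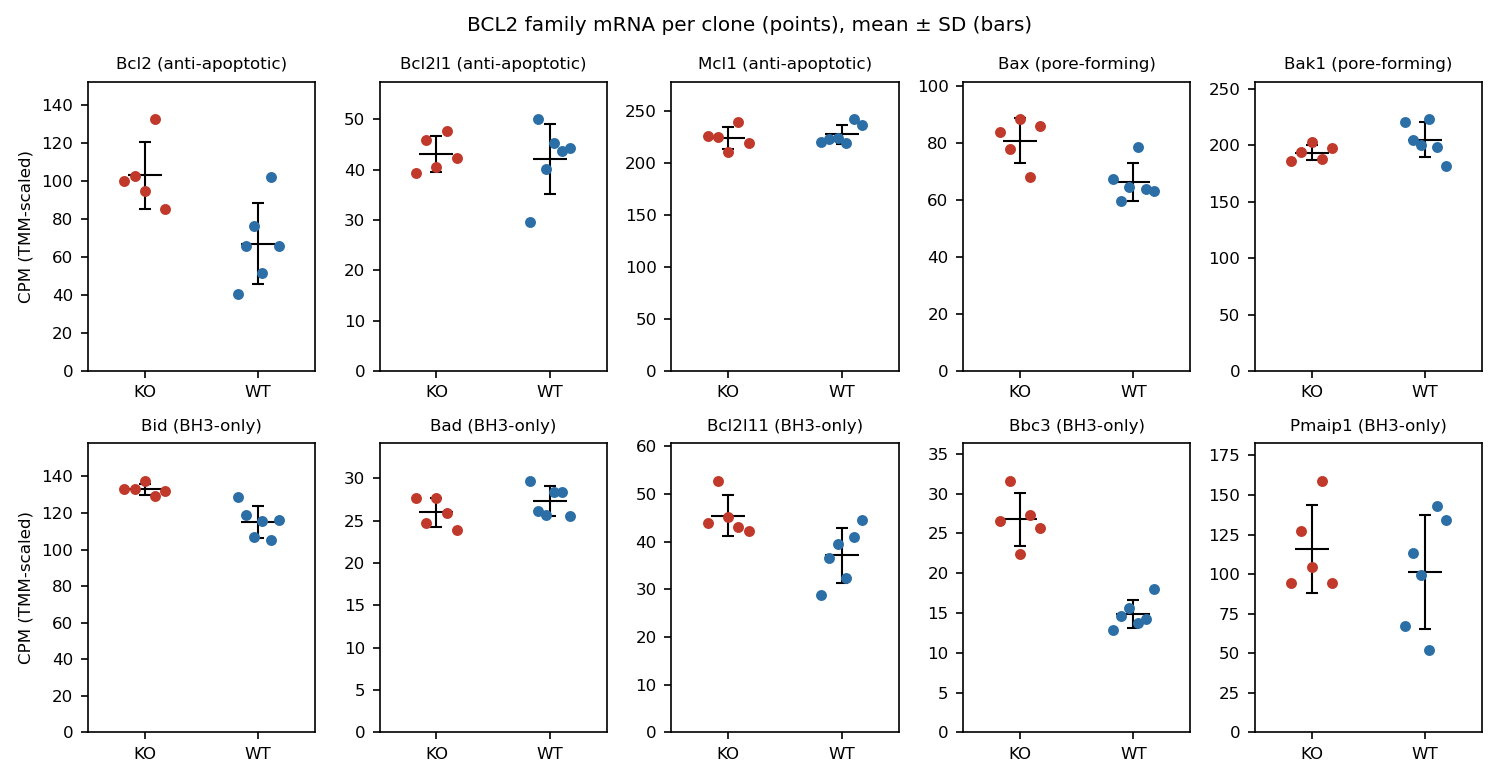
CPM of each member per clone (points, KO left of WT) with the mean and SD (lines and whiskers). KO and WT clones separate for Bbc3 and Bid, and overlap in the other 8 panels.

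Anti-apoptotic and pro-apoptotic transcripts were set side by side as a share, with no test, since the share is a score over chosen genes. Bcl2, Bcl2l1 and Mcl1 together made up 26.9%, 26.1%, 24.8%, 28.0% and 26.0% of the length-scaled CPM of all 10 members in KO clones. They made up 25.7%, 27.5%, 27.9%, 26.9%, 28.6% and 28.0% in WT clones. Means were 26.4 ± 1.18% in KO clones (SD, n = 5) and 27.4 ± 1.02% in WT clones (SD, n = 6), and the ranges overlapped. The difference, -1.08 percentage points, was smaller than the SD of the KO clones and slightly larger than that of the WT clones, and most of each share was Mcl1.

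Contrasts between the numbers in the clone names, within each genotype, called none of these genes. Between numbers 4 and 3 within KO clones, 0 of 11900 genes were called (0%) by edgeR's quasi-likelihood test and 161 had an unadjusted p under 0.05. Between numbers 2 and 1 within WT clones, 0 genes were called (0%) and 372 had an unadjusted p under 0.05. Log2 differences for Bbc3 were -0.21 ± 0.15 (SE) between numbers 4 and 3 and 0.094 ± 0.14 between numbers 2 and 1, and those for Bid were -0.0038 ± 0.079 and -0.074 ± 0.071. Each of these was smaller than the difference of the same gene between KO and WT clones, but Bbc3 and Bid are the members called for that difference. For Bcl2l1, Mcl1 and Pmaip1 the difference between numbers 2 and 1 was the larger, at 0.15, 0.065 and 0.23, against 0.034, -0.023 and 0.19 between genotypes. Numbers 1 and 2 are all WT and 3 and 4 all KO, so these contrasts cannot tell genotype apart from number.

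**Figure D4:**
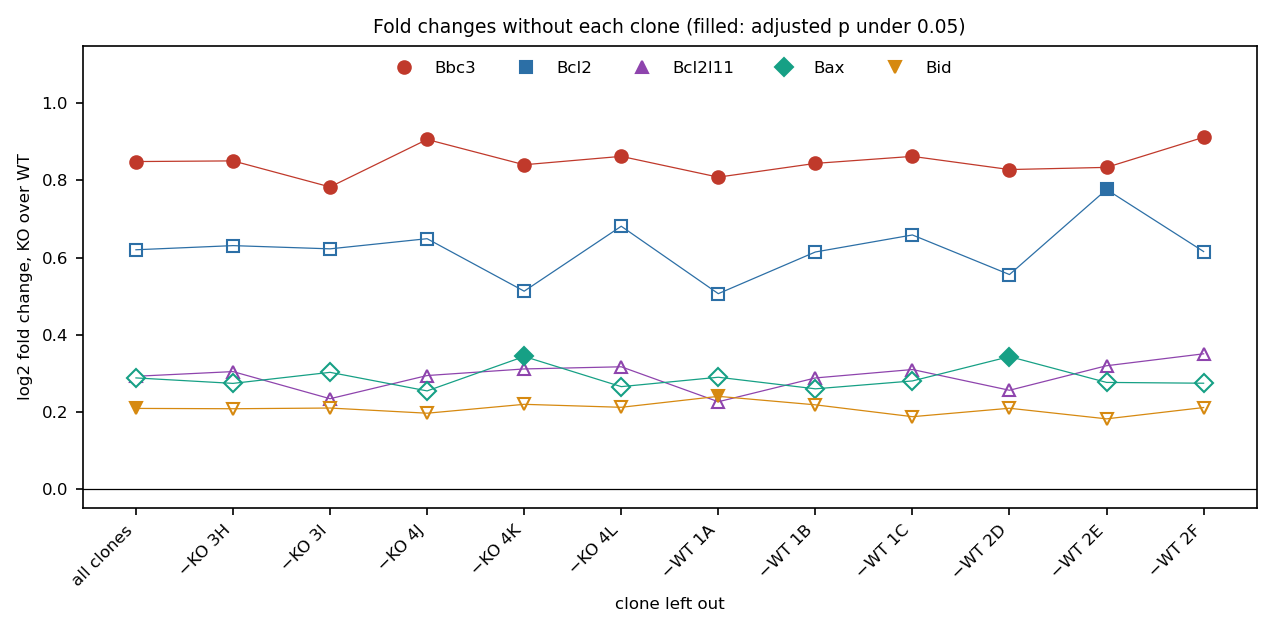
Log2 fold change, KO over WT, of 5 members with all clones and without each clone in turn; filled symbols have an adjusted p under 0.05. Bbc3 is filled throughout, Bid with all clones and without WT 1A, Bax without KO 4K or WT 2D, and Bcl2 without WT 2E.

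Clones of 1 genotype also differed in their RNA of other blood cell types, and some members moved with it. WT 2D and WT 1A had the highest late neutrophil sums of the WT clones, at 1534 and 115 CPM, and the lowest Bcl2, Pmaip1 and Bcl2l11. KO 4K had the lowest sum of all clones, at 15.95 CPM, and the highest Bcl2 and Pmaip1. KO 4L had the highest sum of the KO clones, at 145 CPM, and the lowest Bcl2 and Bcl2l11 among them. Mast cell and basophil genes differed between clones too. Their 6 genes, all detected, summed to 2136, 4530, 3287, 4943 and 2976 CPM in KO clones, against 1311, 2652, 2689, 1072, 3917 and 2444 CPM in WT clones. KO 4K and WT 2E were the highest clones of their genotype in this sum, in Bcl2 and in Pmaip1, and WT 2D and WT 1A were the lowest WT clones in all 3. The 5 megakaryocyte genes were likewise highest in KO 4K and WT 2E and lowest among WT clones in WT 2D and WT 1A. The part of the mast cell, basophil and megakaryocyte genes in the results was not tested. A late neutrophil score was the mean log2 CPM of the 7 tested genes of the late neutrophil list, and differs from the sum. KO 4J had a larger sum than KO 3H (96.7 against 75.2 CPM) but a lower score (-0.58 against 0.46, centred on the mean of all clones). Each clone's late neutrophil score was then a covariate in edgeR's quasi-likelihood test. With it, the log2 fold change of Bcl2 was 0.48 ± 0.14 (SE, adjusted p = 0.0705) and that of Pmaip1 -0.0050 ± 0.16 (adjusted p = 0.991). That of Bcl2l11 was 0.23 ± 0.10 (adjusted p = 0.174) and that of Bax 0.35 ± 0.06 (adjusted p = 0.0112). That of Bid was 0.23 ± 0.05 (adjusted p = 0.0175) and that of Bbc3 0.81 ± 0.10 (adjusted p = 0.00197).

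**Figure D5:**
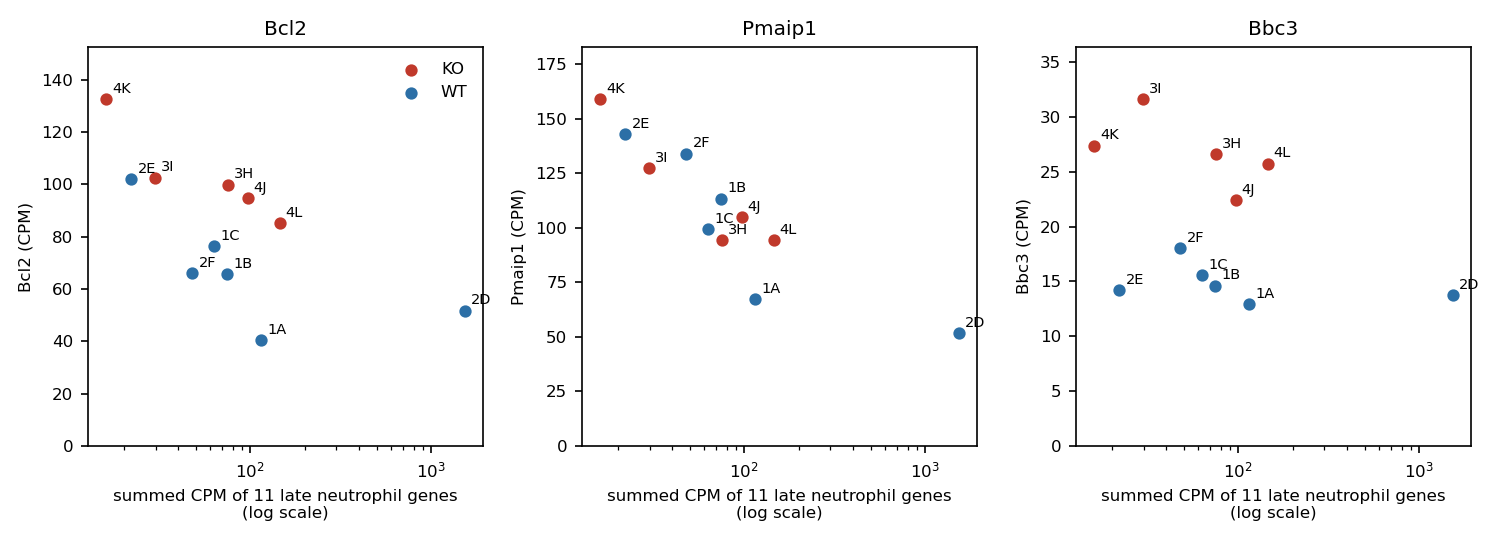
CPM of Bcl2, Pmaip1 and Bbc3 against the summed CPM of 11 late neutrophil genes (log axis), 1 point per clone with KO in red and WT in blue. KO 4K lies at the left and WT 2D at the far right, and in the Bbc3 panel all KO points lie above all WT points.

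Further BCL2 relatives were read from a list of 18 genes, of which 16 were matched by ID and 11 were tested. Bnip3 fell in KO clones and none rose, beside 5.05% of all tested genes called in either direction. BNIP3 is a mitochondrial outer membrane protein that serves as a receptor for mitophagy, the clearance of mitochondria, and is known as a hypoxia-induced gene. It had 11.1, 12.9, 11.0, 13.8 and 12.7 CPM in KO clones, against 17.6, 14.6, 14.8, 17.5, 19.0 and 23.7 CPM in WT clones. All KO clones lay below all WT clones, which gave a log2 fold change of -0.54 ± 0.13 (SE, edgeR quasi-likelihood adjusted p = 0.0374). The call was lost without WT 1A or 2E or any 1 of the 5 KO clones (adjusted p up to 0.0886). Its relative Bnip3l, another mitophagy receptor, known for clearing mitochondria from maturing red cells, had 59.2 ± 5.47 CPM in KO clones and 70.7 ± 5.90 CPM in WT clones, with a log2 fold change of -0.26 ± 0.07 (SE) and an adjusted p of 0.0703. Without KO 4L the adjusted p of Bnip3l was 0.0361.

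Of the remaining relatives, Bnip2 was the most abundant, at 42.2 ± 1.57 CPM per kb in KO clones and 42.4 ± 1.01 CPM per kb in WT clones. The anti-apoptotic Bcl2l2, which encodes BCL-w, had 22.3 ± 7.94 CPM in KO clones and 22.7 ± 7.32 CPM in WT clones, and a 95% interval of its log2 fold change from -0.66 to 0.62. The BH3-only genes Bmf and Hrk averaged under 2 CPM in both genotypes, at 0.87 and 1.35 CPM in KO clones and 1.03 and 0.69 CPM in WT clones. Bcl2l10 and Bcl2a1c had no count in any library, and Bok, Bik and Bcl2a1b had at most 3. Bcl2a1a and Bcl2a1d were not matched by ID, so they were not measured. Alignments that were not unique, 86.3 per 100 gene counts in KO clones and 83.6 in WT clones, entered no gene's count. Low counts of the Bcl2a1 genes therefore do not show that these genes were silent.

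Genes around the family were taken from 4 further lists, and the calls in each stand beside the 5.05% called among all 11900 tested genes. Among 15 tested transcription regulators of the family, Ddit3 and Mdm2 rose and E2f1 fell in KO clones. Ddit3 encodes CHOP, a stress factor known in other cells to raise Bbc3 and Bcl2l11 and to lower Bcl2. It had 26.1, 29.1, 23.5, 19.998 and 23.3 CPM in KO clones, against a lowest value of 8.09, a median of 9.08 and a highest of 13.1 CPM in WT clones. The groups did not overlap, and the difference was 1.34 ± 0.14 on the log2 scale (SE, adjusted p = 0.00117). Mdm2, the p53 target that restrains p53, had 79.2 ± 2.25 CPM in KO clones and 70.2 ± 2.75 CPM in WT clones, a log2 fold change of 0.17 ± 0.04 (SE, adjusted p = 0.0215). This call was lost on leaving out KO 3I, KO 4J, KO 4L or WT 1B. E2f1, a cell cycle factor, had 52.7 ± 2.31 CPM in KO clones and 60.5 ± 1.60 CPM in WT clones, a log2 fold change of -0.20 ± 0.04 (SE, adjusted p = 0.0145) that lost its call without KO 3I. Trp53 itself, the gene of p53, had 255 ± 6.52 CPM in KO clones and 253 ± 7.52 CPM in WT clones, with a 95% interval of the log2 fold change from -0.052 to 0.079. Atf4, the regulator of highest CPM and a stress factor upstream of Ddit3, had 614 ± 54.2 CPM in KO clones and 409 ± 108 CPM in WT clones, with a log2 fold change of 0.59 ± 0.16 (SE) and an adjusted p of 0.0621.

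Among 26 tested genes of protein turnover and modification, Mapk3 fell and none rose, beside 5.05% of all tested genes called in either direction. Mapk3 encodes ERK1, a kinase that marks BIM for degradation, and had 65.9 ± 1.90 CPM in KO clones and 85.9 ± 7.15 CPM in WT clones, without overlap. It differed by -0.38 ± 0.06 on the log2 scale (SE, adjusted p = 0.00525). Mapk3 kept its call in the 11 fits that left out 1 clone. The call was lost without the clones of number 1, of number 3 or of number 4 (edgeR quasi-likelihood adjusted p up to 0.174). The gene of highest CPM in that list, Ywhae, a 14-3-3 protein, had 804 ± 9.53 CPM in KO clones and 861 ± 52.0 CPM in WT clones (log2 fold change -0.099 ± 0.041 SE, adjusted p = 0.202).

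Among 15 tested mitochondrial partners, Vdac3, an outer membrane channel, rose to 62.0 ± 4.41 CPM in KO clones, against 52.9 ± 2.83 CPM in WT clones, with a fold change of 0.23 ± 0.05 on the log2 scale (SE, adjusted p = 0.0389). Aifm1, which encodes the apoptosis-inducing factor of the intermembrane space, fell to 112 ± 6.98 CPM in KO clones, against 131 ± 5.18 CPM in WT clones, with a log2 fold change of -0.22 ± 0.05 (SE, adjusted p = 0.0228). These were the only calls in that list, beside 5.05% of all tested genes. Vdac3 kept its call only without WT 2D or KO 4K among the 11 fits that left out 1 clone, and Aifm1 lost its call without WT 1C or KO 3I. Tmbim6, the highest of the list in CPM, had 604 ± 86.0 CPM in KO clones and 612 ± 96.2 CPM in WT clones. Among 15 tested genes of SCF receptor signalling, 0 were called by edgeR, 3 had an unadjusted p under 0.05, beside 20.3% of all tested genes, and 2 were called by DESeq2, beside 10.6% of all. Kit, the SCF receptor and the highest of these in CPM, had 746 ± 87.6 CPM in KO clones and 671 ± 97.2 CPM in WT clones, with a 95% interval of the log2 fold change from -0.091 to 0.40.

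Genes whose levels tracked the called members from clone to clone were sought among 9397 genes of at least 5 mean CPM, after each genotype's mean was taken out. For Bbc3 the closest were Mbtd1 (Pearson r 0.957 over 11 clones), Zfp189 (0.897) and Ier2 (0.887). For Bid they were Trnt1 (0.964), Mtmr1 (0.919) and Suv39h2 (0.916). These are the highest of many coefficients over few clones and describe likeness only. None of these 6 genes was itself called between KO and WT clones, with adjusted p-values from 0.352 to 0.965.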

How the data were processed

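RNA of 11 clones (5 KO, 6 WT) was analysed from raw counts per Ensembl gene that the authors deposited, 1 library per clone, not normalised and not pooled. Per the labels' protocols, polyA RNA went into strand-specific libraries, while the deposited count tables are marked as counted without regard to strand. STAR, HTSeq, edgeR and the build mm9 are named in the submitters' processing notes, without versions; the sources used here give neither the annotation release nor the deleted part of Taz. Of 37583 gene IDs, 32860 (87.43%, with 99.563% of counts) were matched to symbols in GENCODE M21. Positions and exon lengths printed here are those of its build, GRCm38, and promoters those of RefSeq on GRCm38.p6, so they were not combined with mm9 coordinates. Totals that name no gene stayed out of library sizes; reads in no gene made up 6.59% of KO and 6.07% of WT reads counted. Gene counts ran from 19778119 to 27431544 per library. Replicate libraries differed by more than sampling noise in each pair (chi-square per gene at least 15.2).

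Genotypes were compared with the robust quasi-likelihood test of edgeR 4.0.16 (R 4.3.3) after TMM scaling and filterByExpr, with Benjamini-Hochberg adjustment over all 11900 tested genes, calling a gene at an adjusted p under 0.05. CPM use TMM-scaled library sizes, log2 CPM a prior count of 2. Standard errors were worked back from F, and 95% intervals use the test's degrees of freedom. Title numbers were contrasted in a model of 4 set means. The 27 alternatives comprised RLE and upper-quartile scaling, no filter, a stricter filter, DESeq2 1.42.0, limma-voom 3.58.1, a non-robust fit, title numbers as a random block, as set means and with counts summed, omission of each clone, each title number or the 10 most abundant genes, and the late neutrophil score as covariate. The scripts were tested on simulated counts. Named genes are Taz, the 10 members, other relatives, the called genes and the gene of highest CPM of each partner list, and the 3 genes most like each called member; Trp53 and Gm14005 were named after values were seen. Members and lists were chosen with earlier results of these data known.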

Additional observations from a re-analysis of the deposited data

Results flagged for a closer look

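Bcl2l11 in the KO clones had 1 clone far from the other 4. KO 3I stood at 52.7 CPM, while the other KO clones lay between 42.3 and 45.2 CPM, and the gap to the next clone was 0.722 of the group's whole range, above the critical value of 0.71. It was 1 of 44 groups of clones examined in this way (the members, Taz and the other relatives in each genotype), and about 1 in 20 groups is marked so by chance. Without KO 3I the log2 fold change of Bcl2l11, KO over WT, was 0.23 ± 0.11 (SE, adjusted p = 0.333), against 0.29 ± 0.11 with all clones.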

How the results depend on the processing

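Leaving out 1 clone at a time gave between 240 and 739 called genes (240 to 395 without any KO clone or WT 1A, 1B, 1C or 2F) and 1 or 2 called members; the title-number contrasts then had between 0 and 1 (1 without WT 1C in both, and without KO 4J in the KO contrast). Genes called numbered 329 with no filter, 1261 with DESeq2, 1983 with title number as a random block (consensus correlation -0.215), 197 with counts summed per title number, 307 with set means and 942 with the late neutrophil covariate. They numbered 45, 296, 92 and 32 without title number 1, 2, 3 or 4. Called members numbered 1 with no filter, summed counts or set means, 4 with DESeq2, 5 with the random block, 0 without title number 1 and 1 without title number 2, 3 or 4. Other normalisations, a stricter filter, limma-voom, a non-robust fit and leaving out the 10 most abundant genes gave 595 to 621 called genes and 2 called members. Why the counts moved was not tested, apart from the fewer clones in some fits. Title number is nested in genotype, and the standard error of Bcl2 was 0.152 with the random block and 0.206 by limma-voom without it. A negative correlation within such blocks makes that test less strict, so its calls carry less weight.

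Bbc3 passed in 26 of 27 alternatives, with log2 fold changes from 0.76 to 0.98, and Bid in 10 of 27. No call changed direction; the uncalled Bcl2l1, Mcl1 and Pmaip1 changed sign in 3, 1 and 1 alternatives. Bcl2l11 passed only with the random block (adjusted p = 0.0375), the less strict fit described above. The anti-apoptotic share differed by -1.48 to -0.69 percentage points, KO minus WT, over 12 alternatives. With 5 against 6 clones, changes within the intervals printed for Mcl1, Bak1, Bad, Bcl2l1 and Pmaip1 remain possible. These intervals are not limits of detection, and a change somewhat outside them could also have missed the threshold. Counts measure mRNA, without isoforms or protein.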

Other observations

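Gm14005, named Morrbid in RefSeq, a long noncoding RNA beside Bcl2l11 that is known in mouse myeloid cells to restrain Bcl2l11, was looked up after the values of the members were seen. It had 7.59 ± 1.08 CPM in KO clones (SD, n = 5) and 6.45 ± 1.96 CPM in WT clones (SD, n = 6), with a log2 fold change of 0.23 ± 0.20 (SE), a 95% interval from -0.21 to 0.67 and adjusted p = 0.557 by edgeR's quasi-likelihood test.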
